A study of Mus musculus with 15 samples.

Results

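The 40 genes described here encode proteins that carry a cell through mitosis, and their transcripts were followed in mouse adrenal glands before, at the end of and after treatment with dexamethasone. The genes were taken from a list of symbols, and each was matched to the array probe sets that the platform annotation gives to that symbol alone. All 40 were measured, each by 1 such probe set, among 21439 genes on the arrays. A further 3 probe sets, 2 shared by Top2a and 1 by Nusap1 with another gene, were left out. RNA of whole adrenal glands was read on 15 one-colour Affymetrix arrays, each titled as a biological replicate. All mice were wild-type C57BL/6J males with an age label of 6 weeks. The control group (4 arrays) was taken before dexamethasone, a synthetic glucocorticoid that lowers pituitary ACTH and lets the corticosterone-producing cortex shrink. The withdrawal group (3 arrays) had drunk water with dexamethasone for 14 days and was taken as the drug was withdrawn. The day 3 group (4 arrays) and the day 7 group (4 arrays) had the same 14 days of drug and then 3 or 7 days without it. No group of untreated mice was kept for the same number of days, so treatment, recovery and elapsed time cannot be told apart in any comparison with control. Between withdrawal, day 3 and day 7, recovery and elapsed time cannot be told apart either.

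Mitotic transcripts are made late in each division cycle, mainly in G2 phase, and are destroyed or switched off again as cells leave mitosis, so that a tissue at rest holds little of them. Their promoters are kept silent in resting cells by a repressor complex called DREAM and are switched on by the related activator complexes of B-Myb and FoxM1. The adrenal cortex renews slowly in the adult and is known to regrow under ACTH after a period of glucocorticoid suppression. In a whole gland, more dividing cells and more mitotic RNA per dividing cell cannot be told apart.

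The tissue label was borne out by its markers. Transcripts of the steroid-making cortex and of the chromaffin cells of the medulla were far above the median signal of the arrays: at day 3 and at withdrawal Cyp11a1 averaged 10.71 and 10.37, Star 10.80 and 10.55, Th 9.74 and 9.86, and Chga 10.68 and 10.91. The values are on a log2 scale, where 1 unit is a 2-fold difference, and array medians over all probe sets ran from 1.55 to 1.64. Levels under 2, which lie near those medians, are called low here. At withdrawal 8 members had a group mean under 2 (Melk, Bub1, Aurkb, Birc5, Kif15, Kif2c, Kif4 and Cep55), and at day 3 there were 0 such members.

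Mitosis genes were higher 3 days after withdrawal than in the other groups. The mean over the 40 genes was 3.28 ± 0.21 in the control group, 3.06 ± 0.11 in the withdrawal group, 3.96 ± 0.13 in the day 3 group and 3.32 ± 0.25 in the day 7 group (log2, SD over arrays, n = 4, 3, 4 and 4). Array by array it was 3.55, 3.13, 3.10 and 3.33 in control, 3.09, 2.94 and 3.14 at withdrawal, 3.90, 4.14, 3.85 and 3.94 at day 3, and 3.28, 2.97, 3.51 and 3.51 at day 7. The 4 day 3 arrays lay above all 11 others, and the ranges of the other 3 groups overlapped. In all 40 genes the highest of the 4 group means was that of day 3, where 22% of all genes had theirs. Withdrawal had the lowest group mean for 32 of the 40, control for 6 and day 7 for 2. In 11 genes each of the 4 day 3 arrays exceeded each of the other 11, a pattern that 0.331% of all genes showed: Cdk1, Ube2c, Cenpe, Birc5, Kif11, Kif15, Nusap1, Prc1, Anln, Mki67 and Top2a.

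**Figure D1:**
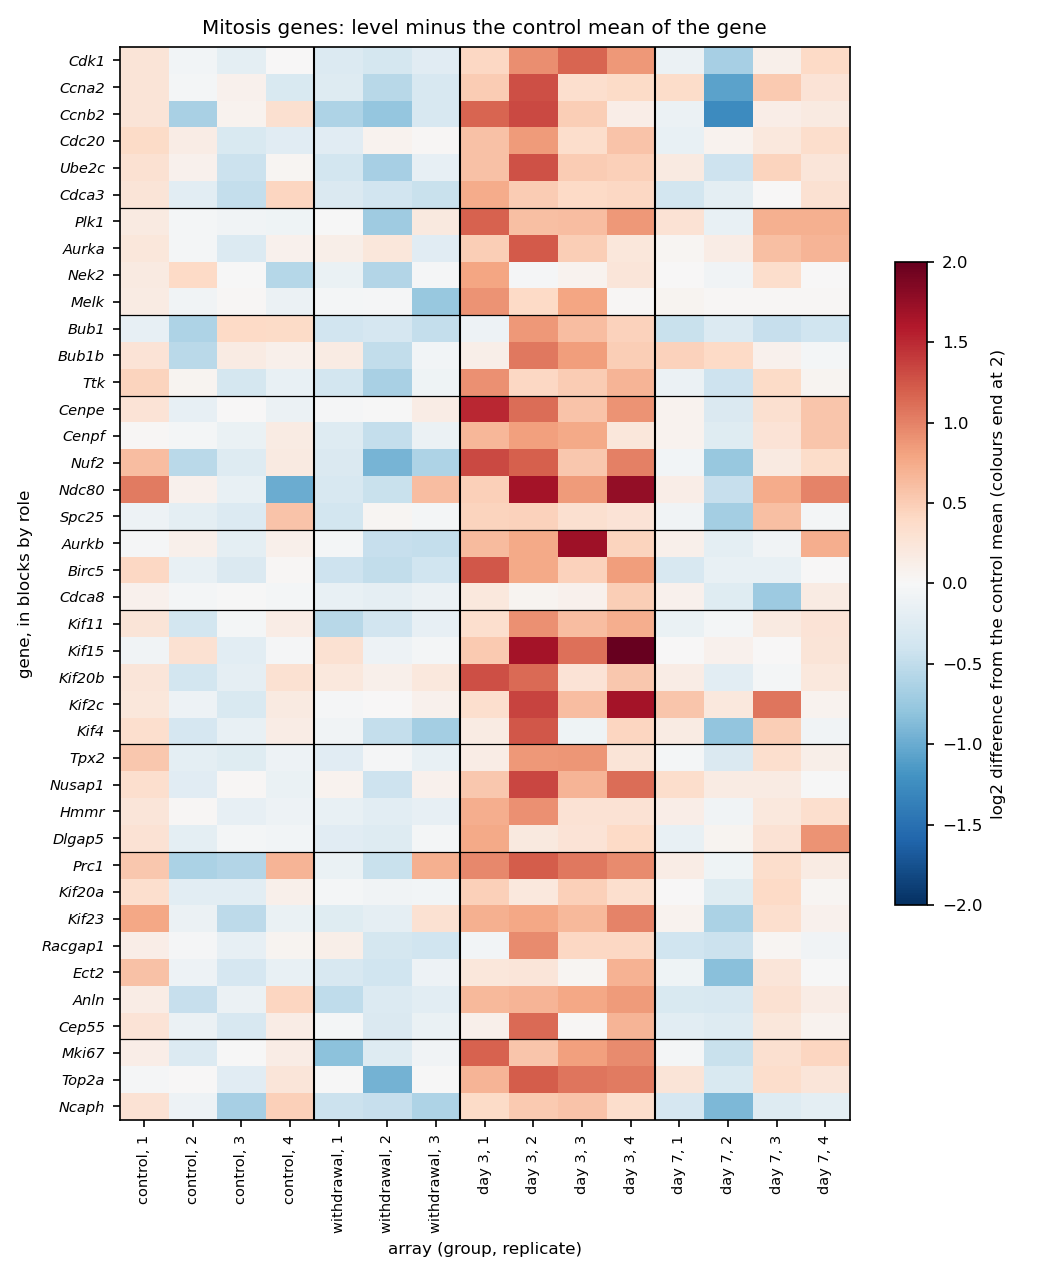
Level of each of the 40 mitosis genes (rows, in blocks by role) in each of the 15 arrays (columns, by group), as the log2 difference from that gene's mean in the 4 control arrays; red is above and blue below that mean. The 4 day 3 columns are red for nearly every gene, and the second array of day 7 is blue for many.

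Between day 3 and withdrawal, 19 of the 40 genes rose, 0 fell and 21 did not pass the test (limma, adjusted p under 0.05 over all genes tested). Over all 21439 genes, 1.37% were called higher in that comparison. The estimate was above 0 for all 40, with a median difference of 0.93 log2 and a range from 0.36 (Cdca8) to 1.63 (Nuf2), against a median of -0.01 for all genes. At an unadjusted p under 0.05, 38 of the 40 were higher and 0 lower, against 6.46% of all genes higher and 7.39% lower. In 34 of the 40 the day 3 arrays did not overlap the withdrawal arrays, which was so for 6.39% of all genes in that direction. The 21 genes that did not pass had differences between 0.36 and 1.35, with a median of 0.64, against a median of 1.01 for the 19 that rose. Their median standard error was 0.23, against 0.21 for the 19. The number of calls depended on the arrays fitted. It was 11 without the first withdrawal array, 5 without the second and 12 without the third, and 9 with the arrays of these 2 groups fitted alone. The highest number without 1 array was 17, without the third day 3 array. All 40 estimates stayed above 0 in each of these fits. Leaving out each of the 7 arrays of the 2 groups in turn, Birc5, Kif11, Top2a, Mki67 and Anln were called in all 7 fits, Cdk1, Nuf2, Cenpf and Nusap1 in 6, Ube2c and Aurkb in 5, Kif15 in 4, Plk1, Hmmr and Ttk in 3, Cenpe in 2, Cdca3 and Melk in 1 and Ncaph in 0. The highest adjusted p of any of the 19 in these fits was 0.187, for Melk without the third withdrawal array. Plk1 reached 0.173, Cdca3 0.0987 and Cenpe 0.0873, each without the second withdrawal array.

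Mki67, which coats mitotic chromosomes and is the standard histological marker of dividing cells, read 4.80, 4.41, 4.67 and 4.82 in control, 3.86, 4.41 and 4.60 at withdrawal, 5.85, 5.23, 5.49 and 5.62 at day 3, and 4.63, 4.23, 4.99 and 5.11 at day 7. Every day 3 array was above every array of the other groups. The rise over withdrawal was 1.25 ± 0.22 log2, or 2.39-fold (limma, adjusted p = 0.00705). Top2a, the topoisomerase that untangles sister chromatids, read 4.62, 4.64, 4.41 and 4.88 in control, 4.63, 3.70 and 4.63 at withdrawal, 5.32, 5.85, 5.72 and 5.68 at day 3, and 4.90, 4.34, 4.99 and 4.88 at day 7. The second withdrawal array was the lowest of the 15, and the other 2 stood at the level of control. The rise over withdrawal was 1.32 ± 0.22 log2 (adjusted p = 0.00521), and without the second withdrawal array it was 1.01 (adjusted p = 0.0222). Ncaph, a subunit of condensin I, which compacts mitotic chromosomes, read 3.41, 3.54, 3.59 and 3.37 at day 3, against 2.59, 2.56 and 2.41 at withdrawal. These did not overlap, and the rise of 0.96 ± 0.22 log2 passed (adjusted p = 0.0363), but it passed in 0 of the 7 fits that left out 1 array.

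**Figure D2:**
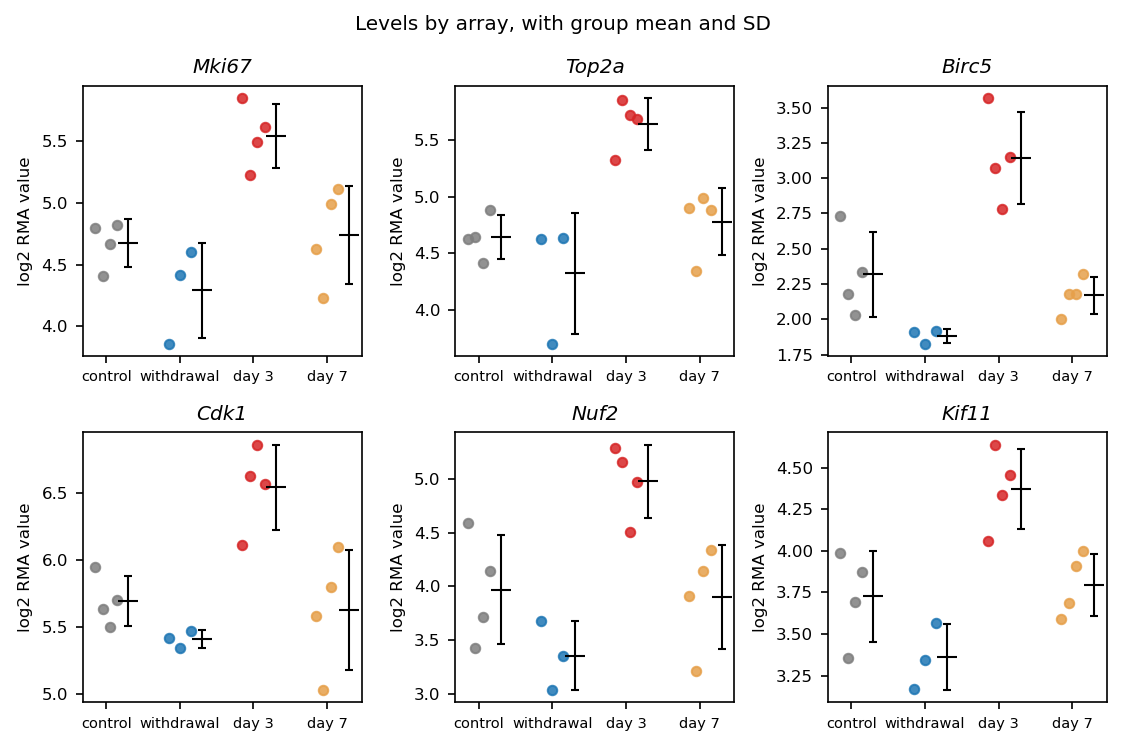
Log2 RMA values of 6 mitosis genes in every array of the 4 groups; coloured points are arrays, the black dash and bar beside them are the group mean and SD. Day 3 points lie above those of withdrawal in all 6 panels, and in the Mki67, Top2a, Birc5, Cdk1 and Kif11 panels also above every control and day 7 point.

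Birc5 (survivin), the small subunit that places the chromosomal passenger complex on the centromere, gave the smallest adjusted p of the 40 genes. It read 2.73, 2.18, 2.03 and 2.34 in control, 1.91, 1.83 and 1.92 at withdrawal, 3.57, 3.07, 2.78 and 3.15 at day 3, and 2.00, 2.18, 2.18 and 2.32 at day 7. The withdrawal arrays sat close together, all low, and below all control arrays, while the lowest day 3 array was above the highest array of any other group. It rose over withdrawal by 1.26 ± 0.17 log2, or 2.39-fold (adjusted p = 0.00183). Aurkb, the kinase of the same complex, read 2.87, 2.98, 3.93 and 2.68 at day 3, against 2.19, 1.77 and 1.75 at withdrawal, and rose by 1.21 ± 0.26 log2 (adjusted p = 0.0244). Cdca8 (borealin), which binds Birc5 in that complex, differed by 0.36 ± 0.17 (adjusted p = 0.364), the smallest difference among the 40. Its day 3 arrays, at 3.06, 2.92, 2.94 and 3.34, still lay above the withdrawal arrays, at 2.70, 2.67 and 2.74.

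Among the genes of the mitotic cyclins, their kinase and the ubiquitin ligase APC/C, 3 of 6 rose and 3 did not pass. Cdk1, the kinase that drives cells into mitosis, read 6.11, 6.63, 6.86 and 6.57 at day 3, against 5.42, 5.34 and 5.47 at withdrawal. The groups were well apart, and Cdk1 rose by 1.13 ± 0.21 log2 (adjusted p = 0.0118; 0.0561 without the second withdrawal array). Ube2c, the ubiquitin-conjugating enzyme that serves the APC/C, read 5.42, 6.11, 5.34 and 5.32 at day 3, against 4.46, 4.17 and 4.68 at withdrawal, with the second day 3 array standing above the other 3. The difference was 1.11 ± 0.23 (adjusted p = 0.0212). Cdca3, which helps degrade the mitotic inhibitor Wee1, rose by 0.89 ± 0.20 (adjusted p = 0.0279), a call kept in 1 of the 7 fits without 1 array. The partner cyclins of Cdk1 among these genes did not pass: Ccnb2 (cyclin B2) differed by 1.35 ± 0.35 (adjusted p = 0.0592) and Ccna2 (cyclin A2) by 1.01 ± 0.32 (0.13). Another partner, Ccnb1 (cyclin B1), was not among the genes measured. Cdc20, the activator of the APC/C, differed by 0.63 ± 0.17 (0.0764). In all 6 genes the day 3 arrays lay above the withdrawal arrays, against 6.39% of all genes. For the counts of this and of every other role, the share of all genes called higher was 1.37%.

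Of 4 mitotic kinases outside the complexes, Plk1 and Melk rose and Aurka and Nek2 did not pass. Plk1, which acts at centrosomes and kinetochores from mitotic entry to exit, read 3.87, 3.29, 3.30 and 3.55 at day 3, against 2.69, 1.98 and 2.89 at withdrawal. The groups did not overlap, and the rise was 0.99 ± 0.23 log2 (adjusted p = 0.037). Melk read 2.93, 2.44, 2.82 and 2.05 at day 3, against 1.99, 2.01 and 1.28 at withdrawal, so that the last day 3 array nearly met the second of withdrawal. Its rise of 0.80 ± 0.20 (adjusted p = 0.0494) passed in 1 of the 7 fits without 1 array. Aurka, the centrosomal Aurora kinase, differed by 0.57 ± 0.22 (adjusted p = 0.24), and Nek2, which splits the duplicated centrosomes, by 0.52 ± 0.23 (0.325). Both overlapped between the groups.

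Of the 3 spindle checkpoint kinases, which hold back anaphase until all chromosomes are attached, Ttk (Mps1) rose. It read 3.53, 3.04, 3.12 and 3.30 at day 3, against 2.24, 1.96 and 2.53 at withdrawal, a difference of 1.00 ± 0.21 log2 between groups that did not overlap (adjusted p = 0.0203). Bub1 differed by 0.86 ± 0.23 (adjusted p = 0.0722) without overlap, and Bub1b (BubR1) by 0.76 ± 0.24 (0.129) with overlap.

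Kinetochore genes held the largest difference of the 40. Nuf2, a subunit of the Ndc80 complex that ties kinetochores to microtubules, read 4.59, 3.43, 3.71 and 4.14 in control, 3.67, 3.03 and 3.35 at withdrawal, 5.29, 5.16, 4.51 and 4.97 at day 3, and 3.91, 3.21, 4.14 and 4.34 at day 7. Day 3 lay above withdrawal and day 7 throughout, but its lowest array was below the first of control. The rise over withdrawal was 1.63 ± 0.29 log2, or 3.09-fold (adjusted p = 0.00852). The partner Ndc80 had a difference of 1.24 that did not pass (adjusted p = 0.212): its standard error of 0.46 was the largest of the 40, and its day 3 arrays, at 3.76, 4.95, 4.13 and 5.04, overlapped those of withdrawal, at 2.96, 2.84 and 3.90. Spc25, a further subunit of that complex, differed by 0.50 ± 0.24 (adjusted p = 0.387). Cenpf, a large coiled-coil protein of the outer kinetochore, read 3.99, 4.15, 4.09 and 3.55 at day 3, against 3.08, 2.85 and 3.22 at withdrawal, and rose by 0.90 ± 0.18 (adjusted p = 0.0147). Cenpe, the kinetochore motor that brings chromosomes to the spindle equator, rose by 0.98 ± 0.21 (adjusted p = 0.0228), a call kept in 2 of those 7 fits.

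Spindle motors of the kinesin family rose in 2 of 5 cases. Kif11 (Eg5), which pushes spindle poles apart, read 4.06, 4.64, 4.34 and 4.46 at day 3, against 3.17, 3.34 and 3.57 at withdrawal. The groups were apart and the rise of 1.01 ± 0.17 log2 (adjusted p = 0.00502) passed in all 7 fits without 1 array. Kif15, which can stand in for Kif11, was low in control with 1.34, 1.70, 1.19 and 1.38 and at withdrawal with 1.70, 1.30 and 1.36, was spread widely at day 3 with 1.93, 3.06, 2.50 and 3.56, and was at 1.41, 1.48, 1.41 and 1.66 at day 7. Each day 3 array lay above every other array, and Kif15 rose over withdrawal by 1.31 ± 0.27 (adjusted p = 0.0207). Kif2c (MCAK, 0.97 ± 0.28, adjusted p = 0.105), the chromokinesin Kif4 (0.85 ± 0.31, adjusted p = 0.21) and Kif20b (0.63 ± 0.22, adjusted p = 0.18) did not pass.

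Of 4 proteins that build or bundle spindle microtubules, Nusap1 and Hmmr rose. Nusap1 read 4.72, 5.52, 4.86 and 5.30 at day 3, against 4.25, 3.76 and 4.27 at withdrawal, a rise of 1.00 ± 0.19 log2 without overlap (adjusted p = 0.0136). Hmmr read 3.32, 3.49, 2.88 and 2.88 at day 3, against 2.43, 2.38 and 2.42 at withdrawal, and rose by 0.73 ± 0.15 (adjusted p = 0.0213). Its withdrawal arrays were nearly equal, and its difference was the smallest among the 19 that rose. Tpx2, which activates Aurka on the spindle, differed by 0.67 ± 0.22 (adjusted p = 0.145) and Dlgap5 by 0.58 ± 0.21 (0.187).

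Of 7 genes of the central spindle and of cytokinesis, 1 rose and 6 did not pass, with an unadjusted p under 0.05 in all 7, against 6.46% of all genes, and no overlap in 6, against 6.39%. Anln (anillin), the scaffold of the cleavage furrow, read 4.70, 4.73, 4.83 and 4.91 at day 3, against 3.54, 3.78 and 3.85 at withdrawal. The 4 day 3 arrays lay close together and far above withdrawal, and the rise was 1.07 ± 0.19 log2 (adjusted p = 0.00875). Racgap1, which pairs with Kif23 in centralspindlin, read 3.55, 4.56, 4.02 and 4.03 at day 3, against 3.73, 3.26 and 3.21 at withdrawal, so that the groups overlapped (0.64 ± 0.20, adjusted p = 0.127). Prc1, which crosslinks the microtubules of the central spindle, differed by 1.00 ± 0.31 (adjusted p = 0.129), Kif23 by 0.82 ± 0.26 (0.144), Cep55, which recruits the abscission machinery, by 0.64 ± 0.23 (0.2), Ect2, the activator of RhoA at the furrow, by 0.57 ± 0.25 (0.309), and Kif20a by 0.42 ± 0.15 (0.194). No test compared the roles with each other.

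**Figure D3:**
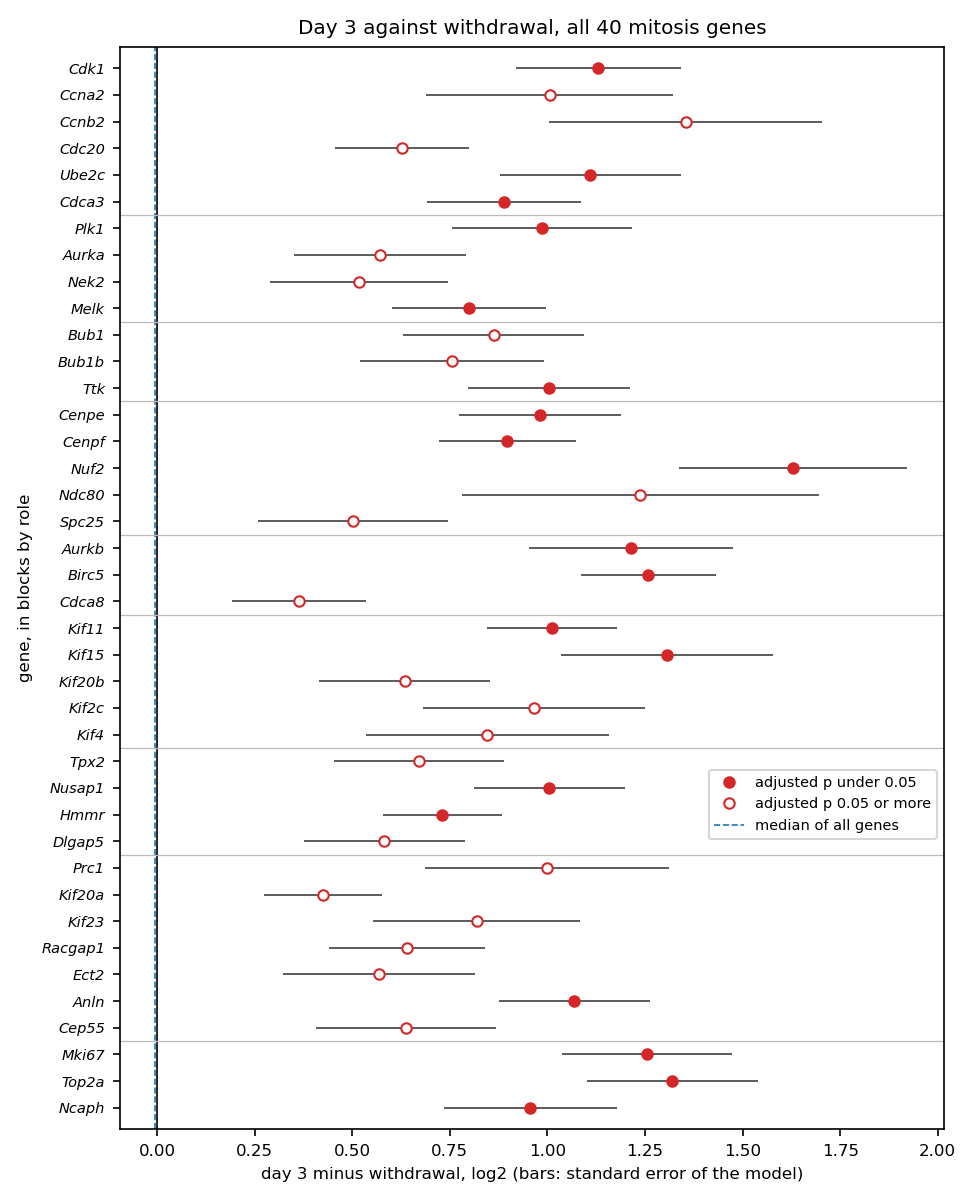
Difference between day 3 and withdrawal (log2, horizontal axis) for each of the 40 mitosis genes, in blocks by role; points are estimates of the limma fit and bars their standard errors. All 40 points lie right of 0, the 19 filled points passed the test, and the dashed line is the median of all genes at -0.01.

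The promoters of the 3 genes with the smallest adjusted p for day 3 against withdrawal are shown because the 40 genes moved together. Each is the RefSeq window of 250 bases before to 50 after the annotated start (GRCm38.p6), written 5′ to 3′ on the gene's strand. Birc5 lies at chr11:117848987-117849286 on the plus strand, Kif11 at chr19:37376132-37376431 on the plus strand and Top2a at chr11:99024140-99024439 on the minus strand. Capitals mark matches, on either strand, to TTTGAA or TTTAAA, the usual letters of the cell cycle homology region that DREAM and B-Myb complexes bind, to CCAAT, the box bound by NF-Y, and to GCGGGAA or GCGCGAA, core letters of an E2F site.
Birc5: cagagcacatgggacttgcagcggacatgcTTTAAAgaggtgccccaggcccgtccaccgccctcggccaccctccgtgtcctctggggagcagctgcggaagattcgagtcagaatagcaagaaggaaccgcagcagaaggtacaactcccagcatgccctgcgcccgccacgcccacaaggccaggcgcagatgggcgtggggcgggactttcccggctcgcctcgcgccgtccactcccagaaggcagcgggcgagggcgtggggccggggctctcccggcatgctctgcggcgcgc
Kif11: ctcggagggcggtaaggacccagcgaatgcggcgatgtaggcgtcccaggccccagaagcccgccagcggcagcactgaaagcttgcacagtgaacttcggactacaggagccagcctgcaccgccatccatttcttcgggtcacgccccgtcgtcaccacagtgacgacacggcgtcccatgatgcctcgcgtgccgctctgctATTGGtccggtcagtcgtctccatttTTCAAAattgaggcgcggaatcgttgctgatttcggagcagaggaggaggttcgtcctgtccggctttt
Top2a: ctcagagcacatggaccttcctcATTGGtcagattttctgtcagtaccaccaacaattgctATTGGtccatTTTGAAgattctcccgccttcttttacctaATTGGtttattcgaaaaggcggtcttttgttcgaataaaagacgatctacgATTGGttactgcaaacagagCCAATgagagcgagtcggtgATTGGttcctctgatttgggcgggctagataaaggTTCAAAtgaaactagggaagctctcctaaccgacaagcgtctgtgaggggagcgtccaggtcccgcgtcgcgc

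In Kif11 the window held TTTGAA on the minus strand 19 bases before the start and CCAAT on the minus strand 45 bases before it. Top2a held TTTGAA at -179 on the plus and at -23 on the minus strand, and 6 matches to CCAAT between -227 and -58. Birc5 held 1 match in all, TTTAAA at -220. RefSeq windows were at hand for 35 of the 40 genes and for 16552 of all genes measured, taking the first window listed for a gene. TTTGAA was in 27 of the 35 (77.1%), against 15.6% of all genes, and TTTAAA in 7 (20%), against 11.8%. At least 1 of these 2 words lay within 50 bases of the start in 26 of the 35 (74.3%), against 6.76% of all genes. CCAAT was in 24 (68.6%), against 38.3%, and was present at least 2 times in 17 (48.6%), against 12.9%. GCGGGAA was in 0 of the 35 windows, against 6.14% of all genes, and GCGCGAA in 2 (5.71%), against 2.06%. Of the 18 windows of genes that rose, 14 held TTTGAA or TTTAAA, and of the 17 windows of genes that did not pass, 15 did. Words were counted separately where their letters overlapped. A match describes letters in a window and shows no binding.

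Other genes of division were read from further lists. Of 56 measured mitosis genes outside the 40, 11 rose between day 3 and withdrawal, 0 fell and 45 did not pass, with a median difference of 0.51 log2. Over all genes, 1.37% were called higher. Knl1, the kinetochore scaffold that recruits Bub1, rose by 1.37 ± 0.19 (adjusted p = 0.00183), Cdkn3, a phosphatase of Cdk1 and Cdk2, by 1.84 ± 0.36 (0.0157), the spindle protein Ckap2 by 0.82 ± 0.14 (0.00797) and the centromere protein Cenpk by 0.66 ± 0.13 (0.016). Of 34 DNA replication genes 3 rose and 0 fell, against the same 1.37% of all genes, with a median of 0.33. Uhrf1, which maintains DNA methylation at replication forks, rose by 1.46 ± 0.32 (adjusted p = 0.0278). Dtl, a substrate receptor of the CRL4 ubiquitin ligase, rose by 1.16 ± 0.21 (0.00867), and the helicase subunit Cdc45 by 0.92 ± 0.21 (0.037). Dtl was called in all 7 fits without 1 array, and Uhrf1 and Cdc45 in 1 each, with adjusted p up to 0.094 and 0.15 without the third withdrawal array. Of the 4 further mitosis genes named, Knl1 and Ckap2 were called in all 7 such fits and Cdkn3 and Cenpk in 5. The regulators of these genes did not pass at day 3 against withdrawal. Of 23 cell cycle transcription factors 0 were called, with a median of 0.02; by limma 2 were higher and 2 lower at an unadjusted p under 0.05, against 6.46% and 7.39% of all genes. Foxm1, which is also counted among the further mitosis genes, differed by 0.20 ± 0.17 (adjusted p = 0.685), Mybl2 (B-Myb) by 0.28 ± 0.12 (0.302), E2f1 by 0.14 ± 0.15 (0.762), E2f7 by 0.20 ± 0.14 (0.599) and E2f8 by 0.33 ± 0.18 (0.462). Mybl2, E2f7 and E2f8 had low group means at withdrawal, at 1.44, 1.37 and 1.38. Of 8 G1 cyclins and kinases and of 7 CDK inhibitors 0 were called, with 1 and 2 higher and 0 lower at an unadjusted p under 0.05. Ccnd1 (cyclin D1) differed by -0.01 ± 0.19 (adjusted p = 0.991), Ccnd2 by -0.22 ± 0.13 (0.504), Ccne1 by 0.26 ± 0.19 (0.624), Cdkn1a (p21) by -0.05 ± 0.17 (0.942), Cdkn1b (p27) by -0.16 ± 0.16 (0.74) and Cdkn1c (p57) by 0.77 ± 0.27 (0.176).

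Between day 7 and day 3 all 40 estimates were below 0, with a median of -0.60 log2 against 0.01 for all genes, and 0 of the 40 were called. Limma called 0% of all genes lower in that comparison. At an unadjusted p under 0.05, 29 of the 40 were lower, against 3.41% of all genes, and in 19 the day 7 arrays lay below all day 3 arrays, against 1.74% of all genes. Kif15 differed by -1.27 ± 0.25 (adjusted p = 0.208), Nuf2 by -1.08 ± 0.27 (0.354), Birc5 by -0.97 ± 0.16 (0.121), Cdk1 by -0.91 ± 0.20 (0.282), Top2a by -0.86 ± 0.20 (0.31) and Mki67 by -0.81 ± 0.20 (0.354). The day 7 arrays differed among themselves. Of the 40 genes, 28 had their lowest day 7 value in the second array, and 20 had their highest in the fourth and 16 in the third. Leaving out the second day 7 array left the number of genes without overlap at 19.

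Against withdrawal, 0 of the 40 genes were called at day 7, where limma called 0.98% of all genes higher. The median difference was 0.30, with 37 estimates above 0. At an unadjusted p under 0.05, 5 were higher and 0 lower, against 6.31% of all genes higher. Kif11 had the smallest adjusted p, with 0.43 ± 0.17 (0.237), and its day 7 arrays, at 3.59, 3.69, 3.91 and 4.00, lay above the withdrawal arrays, at 3.17, 3.34 and 3.57. Plk1 differed by 0.56 ± 0.23 (adjusted p = 0.281), Mki67 by 0.45 ± 0.22 (0.394) and Top2a by 0.46 ± 0.22 (0.388), all with overlap. 

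Against the control arrays, the estimates of all 40 genes were above 0 at day 3, most were below 0 at withdrawal, and those of day 7 lay on both sides. For day 3 against control the median was 0.63, 0 of the 40 were called, and 0.0886% of all genes were called higher. At an unadjusted p under 0.05, 35 of the 40 were higher, against 5.28% of all genes, and 17 did not overlap, against 2.75%. Kif15 (1.36 ± 0.25, adjusted p = 0.0546), Cenpe (1.02 ± 0.19, 0.0557), Birc5 (0.82 ± 0.16, 0.0625), Nusap1 (0.92 ± 0.18, 0.0625) and Top2a (1.00 ± 0.20, 0.0665) came nearest to the threshold. When the variance was modelled with trend and robust options, 5 of the 40 genes were called. With a filter on dim genes 3 were called among the 31 members it kept. That filter left out Kif15 and Birc5, whose means over the arrays lay under its cut, so they were not tested with it. The first control array had the highest control value in 26 of the 40 genes, and without it 28 genes did not overlap. At withdrawal against control the median was -0.23 with 34 estimates below 0, and 0 of the 40 were called, against 1.81% of all genes called lower. Centring each array on its own median moved the median of all genes in that comparison by -0.11. At an unadjusted p under 0.05, 3 were lower and 0 higher, against 7.27% of all genes lower. Birc5 differed by -0.43 ± 0.17 (adjusted p = 0.204), Nuf2 by -0.62 ± 0.29 (0.3), Mki67 by -0.38 ± 0.22 (0.405) and Top2a by -0.32 ± 0.22 (0.515). For day 7 against control the median was 0.04 with 24 estimates above 0, and 0 of the 40 were called or had an unadjusted p under 0.05, where 0.0187% of all genes were called in either direction. These comparisons share their control, withdrawal or recovery arrays and are not independent of each other.

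The genes also varied together from array to array. The correlation of a gene with the standardised mean of the other members over the 15 arrays had a median of 0.82, from 0.45 (Nek2) to 0.95 (Nuf2). It carries the difference between groups and the differences between arrays of a group alike. The SD of a member within a group had a median of 0.33 at day 3, 0.32 at day 7, 0.21 at withdrawal and 0.29 in control, against 0.17, 0.16, 0.15 and 0.17 for all genes. Among all other genes, the 12 whose values over the 15 arrays were most like the members' mean pattern had correlations between 0.87 and 0.91. Fdft1, Nsdhl, Cyp51, Hsd17b7, Msmo1 and Sqle among them are enzymes of sterol synthesis, and Knl1 and Ckap2 come from the list of further mitosis genes. The others are the linker histone H1f5, the chromatin ATPase Atad2, the MAX-binding factor Mxd3 and the endothelial adhesion protein Icam2. Sqle (squalene epoxidase) averaged 7.18 at day 3, against 5.23 at withdrawal, and H1f5 averaged 7.00, against 5.04. The 6 with the lowest correlations, from -0.86 to -0.81, were Glul (glutamine synthetase), Gtf2i, Selenbp1, Tent5b, Tab2 and Tshz1. Selenbp1 averaged 6.06 at day 3, against 6.95 at withdrawal.

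Markers of some of the cell types in the gland moved between the same groups. Between day 3 and withdrawal, 6 of 10 steroidogenic cortex genes rose and 0 fell, where 1.37% of all genes were called higher. Their mean over the list ran from 9.36 to 9.47 over the day 3 arrays, against 8.60 to 8.78 over the withdrawal arrays. The steroid hydroxylase Cyp21a1 rose by 1.15 ± 0.09 (adjusted p = 3.2e-05), the ACTH receptor partner Mrap by 1.35 ± 0.13 (0.000123), the lipoprotein receptor Scarb1 by 1.65 ± 0.17 (0.000221) and the last enzyme of corticosterone synthesis, Cyp11b1, by 0.77 ± 0.11 (0.00183). Of 12 endothelial genes 4 rose and 0 fell, against the same 1.37% of all genes. Their means ran from 6.25 to 6.36 at day 3 and from 5.69 to 5.84 at withdrawal. Aplnr, the apelin receptor, rose by 1.86 ± 0.27 (adjusted p = 0.002), the endothelial transcription factor Erg by 1.08 ± 0.20 (0.0119), the tight junction protein Cldn5 by 0.71 ± 0.15 (0.02) and Pecam1 (CD31) by 0.39 ± 0.08 (0.024). Of these, Pecam1 was called in 1 of the 7 fits without 1 array, Cldn5 in 5, Erg in 6 and Aplnr in all 7. Of 14 macrophage genes 6 fell and 0 rose, where 0.886% of all genes were called lower, with means from 5.74 to 6.26 at day 3 and from 6.33 to 6.78 at withdrawal. The change was -0.80 ± 0.16 for the complement subunit C1qb (adjusted p = 0.0152), -0.66 ± 0.13 for Csf1r, the receptor of macrophage growth factor (0.0152), -0.72 ± 0.15 for Adgre1, the F4/80 antigen (0.0227), and -0.98 ± 0.21 for Mpeg1 (0.0235). Mpeg1 was called in 2 of the 7 fits without 1 array, Csf1r and Adgre1 in 5 and C1qb in 6. Of 7 chromaffin cell genes 0 were called, and 0 had an unadjusted p under 0.05 by limma. Their means ran from 8.83 to 9.39 at day 3 and from 9.12 to 9.20 at withdrawal. Of 9 capsule and fibroblast genes 0 were called, with means from 5.81 to 6.12 at day 3 and from 6.21 to 6.54 at withdrawal. At an unadjusted p under 0.05, 6 of the 9 were lower, against 7.39% of all genes. The 8 T and B cell genes and the 3 measured red blood cell genes had list means at or under 1.82 and 1.65 in every array. At day 7 the cortex and endothelial means, at 9.36 ± 0.05 and 6.26 ± 0.08, were close to those of day 3, at 9.39 ± 0.05 and 6.31 ± 0.05, while the mitosis mean was 3.32 ± 0.25 at day 7, against 3.96 ± 0.13 at day 3. Which cells the mitotic RNA came from, and the part of any of these markers in the results on mitosis genes, was not tested.

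Neutrophil genes set the second day 3 array apart. Their list mean was 3.78 there, against 1.90, 1.64 and 1.75 in the other day 3 arrays. Some genes of that list are named after their values were seen. S100a8 read 7.69 in that array, against 2.95, 2.89 and 3.50, S100a9 7.47, against 4.15, 3.78 and 3.88, and Camp 5.43, against 1.37, 0.94 and 0.95. Ngp read 3.09, against 1.19, 0.98 and 1.10, and Ltf 2.29, against 1.18, 1.18 and 1.40. Elane and Mpo, enzymes of the primary granules, were low in all 4 day 3 arrays and highest in that one, with 1.45, against 1.18, 0.99 and 0.97, and with 1.21, against 0.91, 1.00 and 0.91. Ly6g did not follow: it read 1.65 in that array, against 2.24, 1.36 and 1.26, and was highest in the first day 3 array. The second day 3 array had the highest mean of the 40 mitosis genes and the highest day 3 value in 17 of them. Without it 14 of the 40 genes rose between day 3 and withdrawal, all among the 19, with a median of 0.84, and 35 did not overlap.

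**Figure D4:**
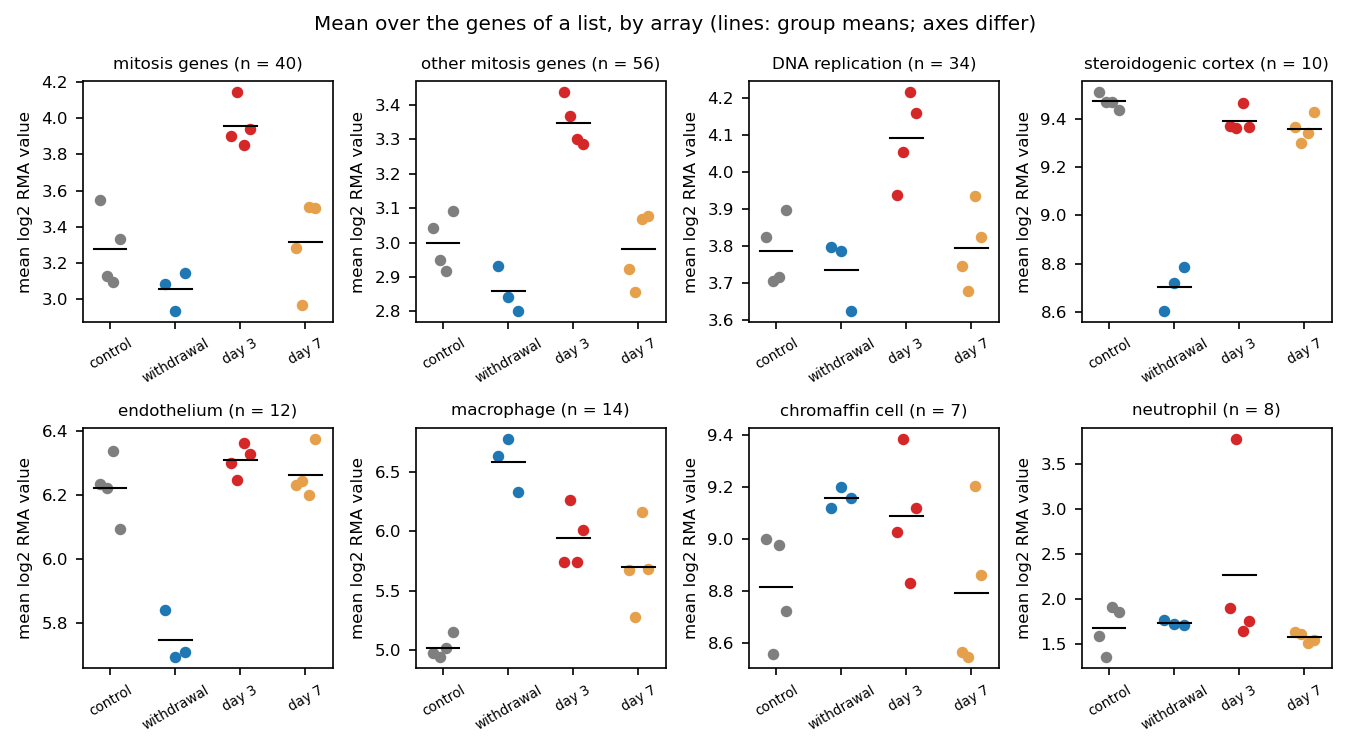
Mean log2 RMA value over the genes of each list (vertical axes, which differ between panels) in every array of the 4 groups; points are arrays and lines are group means. The 4 day 7 arrays lie below all day 3 arrays in the mitosis panel, while the cortex and endothelial means of day 7 stay near those of day 3. The macrophage, chromaffin and neutrophil group means are lower at day 7 than at day 3, and the second day 3 array stands apart in the neutrophil panel.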

How the data were processed

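The authors deposited log2 expression values of each array, which, per the submitters' processing notes, came from RMA as run by oligo. Neither a version nor a genome build is given in the sources used here. RMA had already background-corrected, normalised and summarised the probes, so the scanner intensities were not used here. Of 32736 probe sets, 22399 name 1 gene in the platform annotation, 1607 several and 8730 none; the last 2 kinds were left out. Where a gene had several probe sets, the one with the highest mean was kept, which left 21439 genes. Of the probe sets with 1 gene, 22261 matched RefSeq by Entrez ID, and 0 symbols changed.

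All 15 arrays were fitted with 4 group means in limma 3.58.1 (R 4.3.3), and 6 contrasts were tested, each adjusted by Benjamini-Hochberg over all genes with a threshold of 0.05. Standard errors are those of limma's moderated fit, and the number of arrays limits precision. No 2 arrays were identical. P-values set a difference between group means against the spread between arrays within groups, as moderated by limma. A value was shared exactly by at least 2 arrays for 51.4% of genes, 9 of the 40 members among them. The members and all gene lists were chosen with earlier results of these data known. Values in every array were given for Mki67, Top2a and the 2 members of each role (1 in roles of 3 or fewer) with the smallest adjusted p for day 3 against withdrawal, and Aurkb, Cdca8, Ncaph and Ndc80 were added after their values were seen. Outside the members, the text names up to 4 called genes per list with the smallest adjusted p, regulators chosen by symbol, and the 12 genes most and 6 least like the members' pattern, without predicted, clone, microRNA, immunoglobulin and olfactory genes. Same-numbered arrays of different groups did not deviate together (r from -0.14 to 0.06 over 21 pairs), so the numbers were not used as pairs. Alternatives were a filter on dim genes, median centring, quantile normalisation, the mean of probe sets, trend and robust options, a fit of 2 groups alone, a replicate block and leaving out each array.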

Additional observations from a re-analysis of the deposited data

Results flagged for a closer look

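In each group of 4 arrays the highest and the lowest value were set against the others by Dixon's test. Of 252 groups tested 14 held an array that stood apart, and of 120 groups of member values 4 did. Chance flags about 1 in 20 groups. Among the members, Ccna2 at 4.39 and Top2a at 4.34 were low in the second day 7 array, Ube2c was high at 6.11 in the second day 3 array, and Melk was 2.08 in the first day 7 array while the other 3 arrays were tied at 2.05. The neutrophil mean of 3.78 in the second day 3 array stood above the other 3. The steroidogenic cortex mean was 9.47 in the third day 3 array and the T and B cell mean 1.82 in the first day 7 array, both the highest of their groups. Erg read 4.64 in the fourth control array and 5.39 in the fourth day 7 array, Cldn5 3.89 and Mrap 8.92 in the second control array, each the lowest of its group. E2f7 was highest in the third day 3 array at 1.91 and lowest in the second day 7 array at 1.03. For Melk, for Erg and E2f7 at day 7 and for Cldn5 in control the other 3 arrays were tied, at 5.40 for Erg, 1.41 for E2f7 and 4.12 for Cldn5, so that any gap would have been picked out. Cdkn1b was highest in the second day 7 array at 5.81.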

How the results depend on the processing

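The number of mitosis genes called between day 3 and withdrawal (19) was 9 with these 2 groups fitted alone and ran from 5 to 17 with 1 array left out. With the replicate block, which rests on array numbers that were not shown to pair the samples, it was 11. The other alternatives gave 17 to 21. For day 3 against control (0 called), a filter on dim genes gave 3, median centring 1, the trend and robust options 5, and leaving out 1 array 0 to 2. The filter kept 31 of the 40 genes. Leaving out 1 array gave 0 to 1 for day 7 against day 3 and for withdrawal against control, and 0 to 0 for day 7 against withdrawal and against control. Of 38 named differences, 16 remained called with the 2 groups alone, 23 with the replicate block and 14 to 32 without 1 array, and 0 reversed. The median of the 40 genes between day 3 and withdrawal stayed between 0.84 and 0.98 without 1 array. The withdrawal group held 3 arrays, and 8 genes had a mean under 2 there. The fits that left an array out also had fewer arrays, and the cause of these changes was not tested.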
